A study of Mus musculus with 12 samples.

Results

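The genes described here are 45 markers of blood cell lineages other than B cells, read in the RNA of splenic follicular B cells from WT mice and from mice without Bach2 (Bach2-/-). They are listed by symbol and comprise 10 T cell, 7 natural killer (NK) cell, 13 macrophage and monocyte, 8 neutrophil, 2 dendritic cell, 3 erythroid and 2 platelet genes. Each gene was represented by 1 probe, the one with the highest mean over the 12 arrays among the noncontrol probes whose RefSeq accession maps to its symbol. All 45 had such a probe, and 41 were among the 22744 genes tested.

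The cells came from C57BL/6J mice labelled male and were profiled unstimulated (0 h) or after 24 h in culture with 10 µg/mL of a Fab' against mouse IgM, which engages the B cell receptor. WT and Bach2-/- cells at 0 h and 24 h make 4 groups of 3 single-colour arrays, 12 in all. The study's title sets Bach2 in the context of proliferation driven by that receptor. The age of the animals, the way the cells were purified and whether animals were pooled are not given in the sources used here. The labels do not tell whether the 3 samples of a group came from separate mice or cultures. The p-values therefore measure the spread among these samples alone, which may be technical.

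The log2 signal used throughout is the processed signal of a probe relative to the 75th percentile of its array, with a floor of 0.01 (-6.64 on the log2 scale). That percentile was lowest (97.3) on array 2 and highest (358) on array 1 of the Bach2-/- 24 h group. Precision is limited by the number of arrays. Array 1 of every group was on slide 2 (4 arrays) and arrays 2 and 3 were on slide 1 (8 arrays). Bach2 itself read 3.06 to 3.79 on the 6 WT arrays, 0.80 to 1.11 on the Bach2-/- arrays at 0 h and -1.01 to -0.07 on those at 24 h; the sources used here do not place its probe relative to the deleted part. The library labelled Bach2-/- 0 h array 1 went against its label of male, since its Y-linked genes Ddx3y, Eif2s3y, Kdm5d and Uty were not well above background. Xist, transcribed from the inactive X chromosome of female cells, was well above background on 5 arrays, namely array 1 of every group and Bach2-/- 0 h array 3, and that signal too goes against a label of male. Apart from Bach2-/- 0 h array 1, these arrays also had Ddx3y, Eif2s3y and Uty well above background. What gave both signals on 1 array was not tested. Kdm5d was also not well above background on array 1 of both WT groups. Slide 1 alone leaves out array 1 of every group and gave 1 marker called at 0 h, 14 at 24 h, 18 in the WT and 12 in the Bach2-/- response and 2 in their difference. Bach2-/- 0 h array 1 and the dimmest array, Bach2-/- 24 h array 2, are called the doubted arrays, and counts of markers are given with and without them.

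As background, each of these lineages reads out its own genes: T cells the CD3 chains that carry the antigen receptor's signal, NK cells the granzymes and perforin, macrophages scavenger receptors and complement C1q, neutrophils granule proteins, red cell precursors the globins, and platelets chemokines stored in granules. Bach2 is a repressor that pairs with small Maf proteins on Maf recognition elements, and in mice it is known to hold back effector programs of lymphocytes and myeloid genes of lymphoid progenitors. Several listed genes are known outside the lineage they mark, such as Lck in B-1 cells and Xcl1 in activated T cells. In RNA from a bulk sample, fewer cells of a type and less RNA per cell cannot be told apart.

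The label of follicular B cells was checked on 20 B cell genes, of which 20 were well above background on all 12 arrays. Of the 45 non-B markers, 29 were well above background on all 12 arrays, 15 on some and 1, the phagocyte receptor gene Mertk, on none. By group, 34 markers were well above background on all 3 arrays in WT cells at 0 h, 32 in WT cells at 24 h, 38 in Bach2-/- cells at 0 h and 36 in Bach2-/- cells at 24 h. All 10 T cell markers were above background on every array, as were both dendritic cell markers. Neither platelet marker was so on any array of WT cells at 24 h. Ncr1, C1qa, C1qc and Mertk were not above background on all 3 arrays of any group and were not tested. Of the 41 tested, 4 passed the filter through 1 group only (Gzmb, Mpo and Ppbp through Bach2-/- cells at 0 h and Klre1 through WT cells at 0 h), and the counts below are of tested genes, not of all listed ones. Pf4 and Ngp passed only through the 2 Bach2-/- groups and Xcl1 only through the 2 groups at 24 h. Where a marker passed only through the groups in which it is then called higher, that call is a description.

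**Figure D1:**
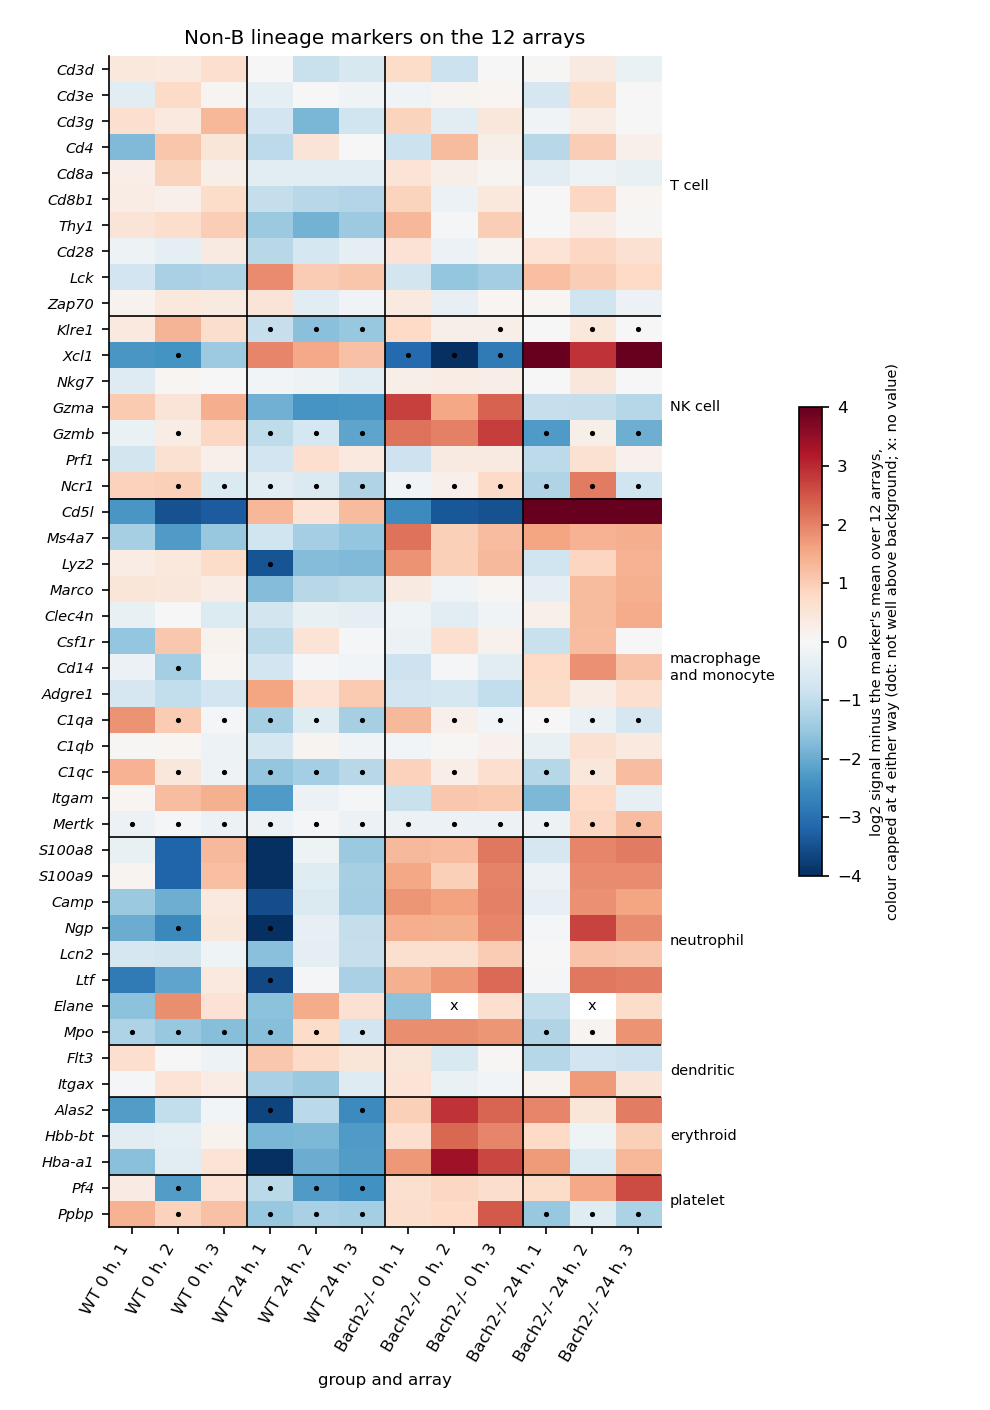
Log2 signal of the 45 markers (rows, by lineage) on the 12 arrays (columns), each minus the marker's own mean over the 12 arrays, with colour capped at 4 either way; a dot marks a spot not well above background and an x a missing value. Cd5l and Xcl1 are highest on the 3 Bach2-/- 24 h arrays, Ms4a7 is high on all 6 Bach2-/- arrays, and all 8 neutrophil rows are lower on array 1 than on arrays 2 and 3 of the WT 24 h group.

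The comparison of genotypes at 0 h asks how the cells differed before stimulation. Of the 41 tested markers, 1 was higher in Bach2-/- cells and 0 were lower, where 0.629% of all genes tested were called higher and 0.119% lower. The gene called was Ms4a7, a membrane protein gene of macrophages, and at unadjusted p under 0.05 limma gave 11 higher and 1 lower. The share of all genes at unadjusted p under 0.05 is not given here. No result is therefore read from this count or from the like ones below. The median difference of the 41 markers was 0.06 on the log2 scale, against 0.03 for all genes. By lineage the medians were -0.12 for T cell, 0.18 for NK cell, 0.05 for macrophage and monocyte, 2.55 for neutrophil, -0.18 for dendritic cell, 3.13 for erythroid and 0.66 for platelet markers. The neutrophil median was 2.21 with Mpo at its bound, 1.54 with normexp and 1.77 to 3.24 with single arrays left out. With normexp the erythroid median was 1.88 and the platelet one 0.16; the latter was 0.15 without WT array 2, and the NK cell median was -0.10 without WT array 1. With the replicate number as a block 849 of all genes passed and 9 markers, all higher, namely Ms4a7, Gzma, 4 neutrophil markers (Camp, Lcn2, Ltf and Mpo) and the 3 erythroid markers. Mpo was tested only because all Bach2-/- arrays at 0 h measured it, so that its call there is a description. Without both doubted arrays 2 passed, Ms4a7 and Hbb-bt.

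After 24 h of stimulation the difference between genotypes took in more of the markers. Here 16 of 41 were higher in Bach2-/- cells and 1 was lower, where 2.26% of all genes tested were called higher and 0.945% lower. The 16 were 5 of 10 tested macrophage and monocyte markers (Cd5l, Lyz2, Ms4a7, Marco and Clec4n), 3 of 10 T cell markers (Thy1, Cd28 and Cd8b1), all 3 erythroid markers (Alas2, Hba-a1 and Hbb-bt), 2 of 6 NK cell markers (Xcl1 and Klre1), 1 of 8 neutrophil markers (Lcn2), 1 of 2 dendritic cell markers (Itgax) and 1 of 2 platelet markers (Pf4). The lower one was Flt3. Pf4 passed the filter only through Bach2-/- cells, so that its call is a description. The median difference of the 41 was 1.41 (1.37 with dim genes at their bounds), against -0.06 for all genes. The medians were 0.39 for T cell, 0.80 for NK cell (0.21 bounded), 1.49 for macrophage and monocyte, 2.93 for neutrophil, 0.11 for dendritic cell, 3.74 for erythroid and 1.92 for platelet markers (1.00 bounded). With normexp they were 0.26 for NK cell, 0.60 for macrophage and monocyte, 1.32 for neutrophil, -0.22 for dendritic cell, 2.25 for erythroid and 0.50 for platelet markers. With single arrays left out the neutrophil median ran from 1.97 to 3.64, and without Bach2-/- array 2 the dendritic cell median was -0.16. The count was 23 with the replicate block (22 higher), under which 4469 of all genes passed, and 8 without both doubted arrays (7 higher). Leaving out single arrays lowered it to 7 for each of the WT arrays. For the Bach2-/- arrays it was 10 with array 1 left out, 7 with array 2 left out and 4 with array 3 left out. With normexp, another background correction, it was 4.

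**Figure D2:**
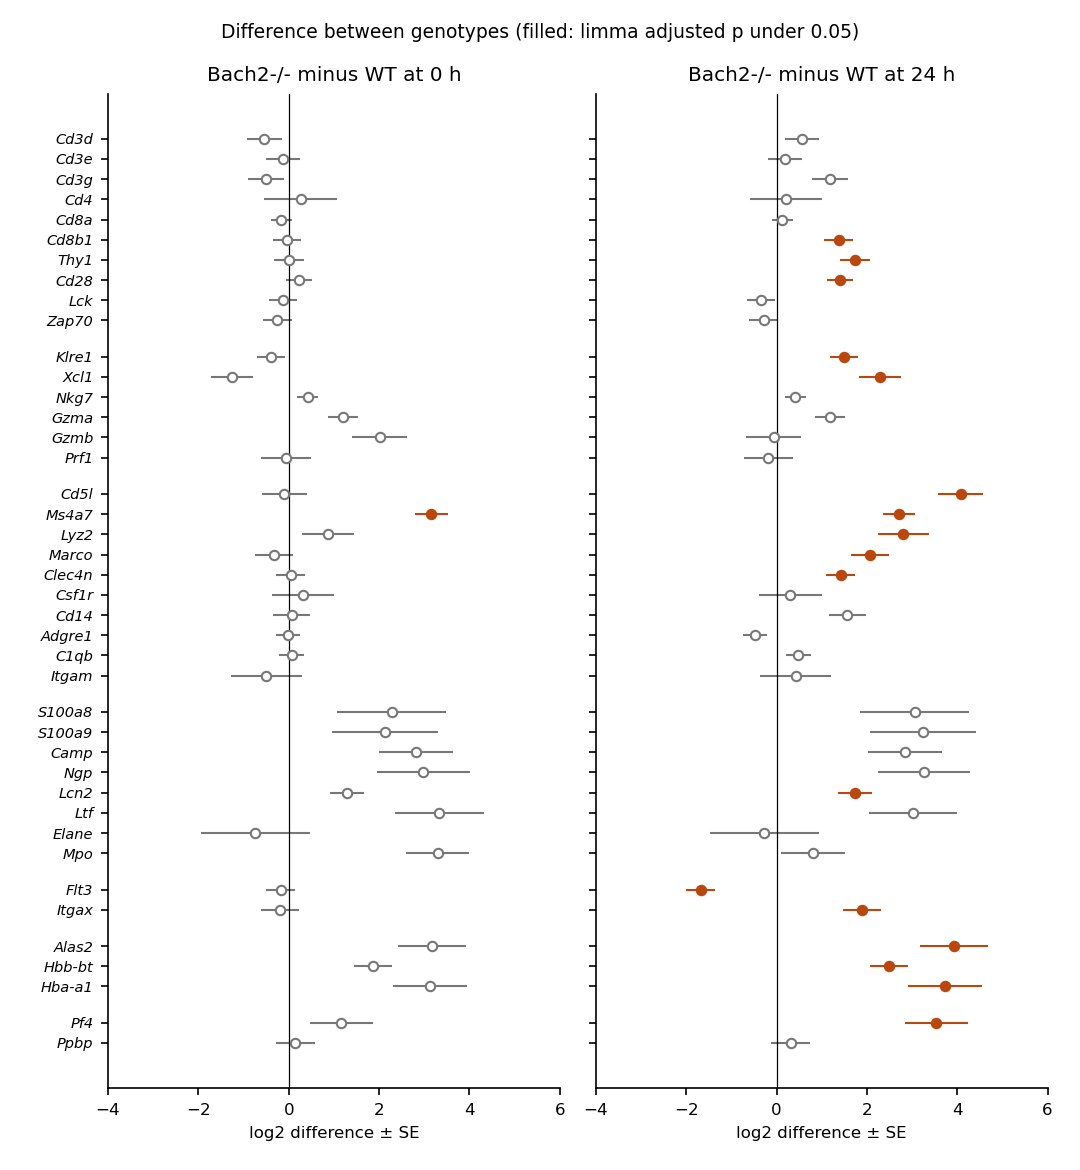
Log2 difference between Bach2-/- and WT cells (± SE, 3 arrays per group) for the 41 tested markers at 0 h (left) and 24 h (right), ordered by lineage; filled points have a limma adjusted p under 0.05. At 0 h Ms4a7 alone is filled, and at 24 h 16 markers are filled to the right of 0 and Flt3 to the left.

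The response of each genotype was read as 24 h minus 0 h. In WT cells 4 of 41 markers rose (Cd5l, Xcl1, Lck and Adgre1) and 11 fell, where 12.5% of all genes tested were called higher and 9.38% lower. The 11 were Thy1, Cd3g, Cd8b1 and Cd8a among T cell, Gzma and Klre1 among NK cell and Lyz2 and Marco among macrophage markers, with Itgax, Hbb-bt and Ppbp. In Bach2-/- cells 6 rose (Cd5l, Xcl1, Lck, Cd14, Adgre1 and Clec4n) and 3 fell (Gzmb, Gzma and Ppbp), where 5.92% were called higher and 8.11% lower. Gzmb and Ppbp were tested only because all Bach2-/- arrays at 0 h measured them, and Klre1 only because all WT arrays at 0 h did, so that these falls are descriptions. Xcl1 was tested only because the arrays at 24 h measured it, so that its rises are descriptions too. The median change was -0.66 in WT cells (-0.47 bounded, 0.04 for all genes) and -0.11 in Bach2-/- cells (0.07 for all genes). Leaving out both doubted arrays changed neither count by more than 1.5 times. Slide 2 holds 1 array of each group and allows no test of its own. The differences of Cd5l between genotypes at 24 h were 4.38 on slide 1 and 3.47 on slide 2, and those of Ms4a7 at 0 h 2.99 and 3.50.

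The difference between the responses was tested as an interaction. It was past the test for 1 marker, Cd5l, which rose more in Bach2-/- cells, and for 0 in the other direction, where 0.259% of all genes tested were called higher and 0.0835% lower. At unadjusted p under 0.05, 13 markers were higher and 3 lower. The replicate block called 1157 of all genes and 6 markers, with Cd5l, Xcl1, Marco, Klre1 and Thy1 higher and Flt3 lower. Without both doubted arrays 2 passed, Cd5l and Xcl1. For Xcl1 and Klre1 this test includes a group with no array well above background. A marker called in 1 genotype and not in the other, such as Lyz2 or Marco, is therefore not shown to respond differently in the fit without the block.

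**Figure D3:**
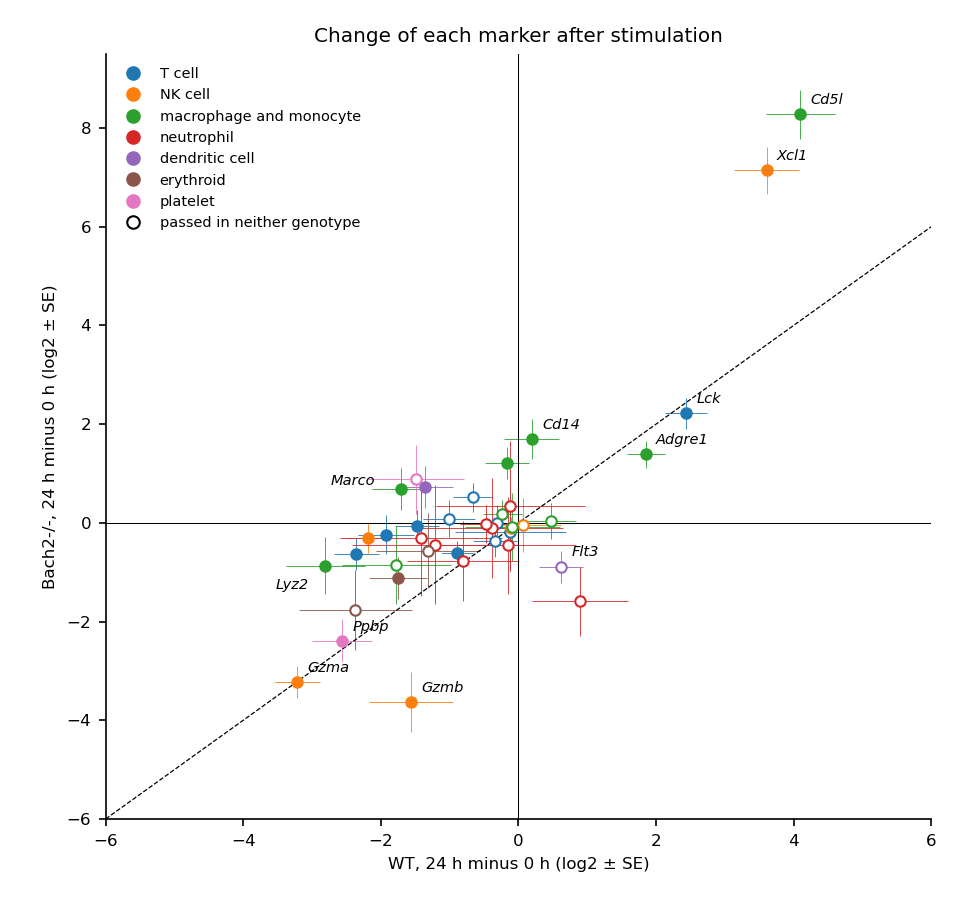
Change after stimulation (24 h minus 0 h, log2 ± SE) of the 41 tested markers in WT cells (horizontal) and Bach2-/- cells (vertical), coloured by lineage; open points passed the test in neither genotype and the dashed line marks equal changes. Cd5l (4.10 and 8.28) and Xcl1 stand at the upper right, above the line, and the vertical place of Xcl1 rests on signals not well above background at 0 h.

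Cd5l encodes a secreted scavenger receptor protein of tissue macrophages, also known as AIM. It read -2.26, -3.43 and -3.27 on WT arrays 1, 2 and 3 at 0 h and 1.39, 0.62 and 1.34 on those at 24 h. The Bach2-/- arrays read -2.49, -3.32 and -3.44 at 0 h and 4.86, 6.30 and 4.42 at 24 h. Before stimulation the genotypes overlapped, both rose without overlap, and at 24 h every Bach2-/- array was above every WT array. Between genotypes Cd5l differed by -0.10 ± 0.50 before stimulation (adjusted p = 1) and by 4.08 ± 0.50 after it (adjusted p = 0.000862). The rise was 4.10 ± 0.50 in WT cells (adjusted p = 0.000232) and 8.28 ± 0.50 in Bach2-/- cells (adjusted p = 1.31e-06). The calls at 24 h and of both rises held in every alternative run, the rise in WT cells at 2.57 with normexp. The rises differed by 4.18 ± 0.70 (adjusted p = 0.0309). That last call was lost with quantile normalization (0.0679), on slide 1 alone (0.0809), and without WT 0 h array 1, 2 or 3 (0.0757, 0.0612 and 0.0918), WT 24 h array 1, 2 or 3 (0.0732, 0.0922 and 0.077) or Bach2-/- 0 h array 2 or 3 (0.105 and 0.102). Over all alternatives its adjusted p ran from 0.00679 to 0.105. The difference of rises itself stayed between 3.62 and 4.56 when single arrays were left out.

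Ms4a7 encodes a tetraspanning membrane protein of monocytes and macrophages. Its log2 signal was -2.36, -3.31 and -2.57 in WT cells at 0 h and -1.82, -2.39 and -2.59 at 24 h. The Bach2-/- arrays gave 1.14, -0.09 and 0.20 at 0 h and 0.55, 0.37 and 0.43 at 24 h. Every Bach2-/- array was above every WT array, and within each genotype the times overlapped. Ms4a7 was higher by 3.16 ± 0.36 before stimulation (adjusted p = 0.00171) and by 2.71 ± 0.36 after it (adjusted p = 0.00154), and both calls held in every alternative run, at 1.89 and 1.67 with normexp.

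Cd5l, Xcl1, Ms4a7 and Gzmb are shown with the 250 bases before their start, in RefSeq's GRCm38.p6 sequence and on the gene's own strand. Other genes whose calls held in every alternative run are not shown here. Of the 45 markers, 36 had a promoter entry. The motifs searched on both strands were TGAGTCA, the core that AP-1 factors bind, and TGCTGA, one side of a Maf recognition element; the full element holds both, so that a match of one can overlap the other. Capitals mark TGCTGA or TGAGTCA on either strand. Cd5l (chr3:87357631-87357880, + strand) holds TGCTGA on both strands, 54 and 46 bases before the start. Xcl1 (chr1:164935523-164935772, - strand) holds it once, 50 bases before the start, and Ms4a7 (chr19:11336147-11336396, - strand) holds neither motif. Ms4a7 has 2 listed starts, and this absence holds for the stretch shown. Gzmb (chr14:56262335-56262584, - strand) holds TGAGTCA 58 and TGCTGA 182 bases before the start, and no other of the 36 holds both. Its fall in Bach2-/- cells is a description and was not called with normexp. These are matches of letters and not sites of binding: TGCTGA stood in 6 of the 36 promoters and in 16.1% of all 32851 promoters of this length, and TGAGTCA in 2 of the 36 (Gzmb and Itgax) and in 4.46% of all.
Cd5l: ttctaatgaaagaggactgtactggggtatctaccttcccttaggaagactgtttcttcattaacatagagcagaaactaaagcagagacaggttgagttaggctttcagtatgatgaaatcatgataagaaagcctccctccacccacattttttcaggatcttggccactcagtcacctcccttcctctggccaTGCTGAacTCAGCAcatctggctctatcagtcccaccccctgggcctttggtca
Xcl1: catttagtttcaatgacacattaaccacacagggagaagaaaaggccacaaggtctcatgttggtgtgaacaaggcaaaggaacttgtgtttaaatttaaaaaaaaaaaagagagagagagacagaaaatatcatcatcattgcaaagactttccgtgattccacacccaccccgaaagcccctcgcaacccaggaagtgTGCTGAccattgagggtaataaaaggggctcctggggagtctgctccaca
Ms4a7: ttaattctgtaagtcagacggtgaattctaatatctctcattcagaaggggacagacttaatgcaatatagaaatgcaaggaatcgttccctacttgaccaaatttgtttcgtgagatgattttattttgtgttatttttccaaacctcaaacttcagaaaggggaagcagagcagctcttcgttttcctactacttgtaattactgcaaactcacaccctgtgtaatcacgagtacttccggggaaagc
Gzmb: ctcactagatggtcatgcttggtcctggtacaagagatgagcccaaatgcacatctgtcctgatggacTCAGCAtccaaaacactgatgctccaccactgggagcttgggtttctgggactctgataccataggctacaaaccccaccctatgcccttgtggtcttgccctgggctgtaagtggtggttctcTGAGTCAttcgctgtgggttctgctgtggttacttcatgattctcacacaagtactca

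Of the other macrophage and monocyte markers, Lyz2, Marco and Clec4n were higher in Bach2-/- cells at 24 h. Lyz2, the lysozyme gene of myeloid cells, read -1.64, -1.54 and -1.22 in WT cells at 0 h, -5.42, -3.68 and -3.73 at 24 h, and in Bach2-/- cells -0.17, -0.997 and -0.64 at 0 h and -2.74, -1.11 and -0.56 at 24 h. WT cells at 24 h were the lowest group, with array 1 not well above background, and array 1 was also the lowest of the Bach2-/- arrays at 24 h. Lyz2 fell in WT cells by 2.81 (SE 0.57, adjusted p = 0.00516; -0.90 with an adjusted p of 0.0997 with normexp) and was higher in Bach2-/- cells at 24 h by 2.81 ± 0.57 (adjusted p = 0.0215). The call at 24 h was lost without WT array 1 (0.0708), Bach2-/- array 2 (0.0805) or Bach2-/- array 3 (0.0895), and with normexp (a difference of 1.002 and 0.278, the upper end of a range from 0.00138 over its alternatives). Marco, a scavenger receptor gene of marginal zone macrophages, read -0.58, -0.61 and -0.76 in WT cells at 0 h, -2.81, -2.17 and -2.10 at 24 h, and in Bach2-/- cells -0.72, -1.22 and -0.996 at 0 h and -1.44, 0.20 and 0.36 at 24 h. All others lay above the WT arrays at 24 h. Marco fell in WT cells by 1.71 (SE 0.42, adjusted p = 0.0138; 0.0559 without WT 24 h array 1 and, at a change of -0.88, 0.0756 with normexp) and was higher in Bach2-/- cells at 24 h by 2.06 ± 0.42 (adjusted p = 0.0215). Leaving out any 1 of the 6 arrays at 24 h other than Bach2-/- array 1 ended that call, with adjusted p of 0.0582 to 0.0898 (0.000737 to 0.158 over all alternatives), and with normexp the difference was 1.17.

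Clec4n, which encodes the fungal pattern receptor dectin-2, read -2.05, -1.78 and -2.30 in WT cells at 0 h and -2.49, -2.05 and -2.11 at 24 h. In Bach2-/- cells Clec4n read -1.93, -2.19 and -1.89 at 0 h and -1.58, -0.51 and -0.29 at 24 h. Only the Bach2-/- arrays at 24 h stood above the rest, array 1 by the least. The difference between genotypes at 24 h was 1.42 ± 0.32 (adjusted p = 0.0359) and the rise in Bach2-/- cells 1.21 ± 0.32 (adjusted p = 0.0271). The first was lost without any 1 of the 6 arrays other than Bach2-/- array 1 (0.084 to 0.142) and the second without any 1 of its 6 other than Bach2-/- 24 h array 1 (0.0589 to 0.118). Over all alternatives the ranges were 0.00395 to 0.24 and 0.00206 to 0.118, and with normexp the values were 0.75 and 0.73. Cd14, the lipopolysaccharide coreceptor gene, read -4.09, -5.22 and -3.80 in WT cells at 0 h, -4.62, -3.95 and -3.97 at 24 h, and in Bach2-/- cells -4.69, -3.92 and -4.32 at 0 h and -3.06, -2.06 and -2.73 at 24 h. WT 0 h array 2 was not well above background, and the Bach2-/- arrays at 24 h lay above all others. It rose in Bach2-/- cells by 1.69 ± 0.40 (adjusted p = 0.0152), a call lost without Bach2-/- 0 h array 1 (0.0584) or 3 (0.0521) or 24 h array 2 (0.0515) and with normexp (a rise of 0.52 and 0.356, the highest of a range from 0.00423). At 24 h the genotypes were 1.57 ± 0.40 apart (adjusted p = 0.0672, or 0.0205 under the replicate block).

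Adgre1, the gene of the macrophage antigen F4/80, rose in both genotypes. It read -0.01, -0.33 and -0.10 in WT cells at 0 h, 2.23, 1.20 and 1.70 at 24 h, and in Bach2-/- cells -0.12, -0.05 and -0.31 at 0 h and 1.40, 0.95 and 1.34 at 24 h. Times did not overlap in either genotype, and the genotypes overlapped at both times. The rise was 1.85 ± 0.27 in WT cells (adjusted p = 0.000769) and 1.39 ± 0.27 in Bach2-/- cells (adjusted p = 0.00472), and the difference of rises was -0.46 ± 0.38 (adjusted p = 0.852). Csf1r, the receptor gene for the growth factor of macrophages and a defining marker, read 0.98, 3.58 and 2.66 in WT cells at 0 h, 1.47, 3.05 and 2.42 at 24 h, and in Bach2-/- cells 2.29, 3.17 and 2.68 at 0 h and 1.61, 3.75 and 2.51 at 24 h. Array 1 was the lowest and array 2 the highest in all 4 groups, and no comparison was called. Itgam, the gene of the integrin CD11b and the brightest marker of this lineage, read 4.51, 5.65 and 5.84 in WT cells at 0 h, 2.15, 4.18 and 4.35 at 24 h, and in Bach2-/- cells 3.54, 5.50 and 5.47 at 0 h and 2.63, 5.22 and 4.10 at 24 h. Here too array 1 was the lowest in all groups. Its change was -1.78 ± 0.79 in WT cells (adjusted p = 0.141, and 0.000535 with the replicate block) and -0.85 ± 0.79 in Bach2-/- cells (adjusted p = 0.63, and 0.0367 with the block). C1qb, a complement chain gene, was tested and called in no comparison, with differences of -0.24 to 0.48, and C1qa and C1qc were well above background on 2 and 4 arrays in all. Over the 13 macrophage and monocyte markers the summed linear signal ran from 27.8 to 66.5 and 15.4 to 32.5 in WT cells at 0 h and 24 h, and from 22.02 to 57.8 and 43.5 to 136 in Bach2-/- cells. Such a sum weighs bright probes most. On the Bach2-/- arrays at 24 h the brightest of the 13 was Cd5l (4.86, 6.30 and 4.42), above Itgam (2.63, 5.22 and 4.10). Itgam, of which array 1 is the lowest in every group, enters all of the sums by its reported probe.

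Among NK cell markers, Xcl1 had the largest response. Xcl1, the gene of the chemokine lymphotactin, read -4.98, -5.02 and -4.10 in WT cells at 0 h and -0.69, -1.13 and -1.46 at 24 h. On the Bach2-/- arrays it read -5.74, -6.64 and -5.46 at 0 h, on no array well above background, and 1.99, 0.24 and 1.35 at 24 h. Both genotypes rose without overlap, and at 24 h the Bach2-/- arrays were above the WT arrays. The rise in WT cells was 3.61 ± 0.47 (adjusted p = 0.000347), and Bach2-/- cells were at least 73.8-fold higher at 24 h than at 0 h (adjusted p = 2.41e-06), a bound set by the lowest signals well above background on those arrays. Both calls held in every alternative run, but Xcl1 passed the filter only through the groups at 24 h, so that these rises are descriptions. The genotypes differed at 24 h by 2.28 ± 0.47 (adjusted p = 0.0223), a call lost without WT array 2 or 3 (0.0761 and 0.103) or Bach2-/- array 1 or 3 (0.0658 and 0.0854) and on slide 1 alone (0.0736), with a range of 0.00288 to 0.103 over all alternatives. With normexp the fitted rise was 1.33 in WT cells. The difference of rises did not pass (adjusted p = 0.0589, and 0.00792 with the replicate block), and no size is given for it because it rests on the signals not well above background.

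Gzma and Gzmb encode granzymes, the proteases of cytotoxic granules. Gzma read 0.90, 0.37 and 1.31 in WT cells at 0 h, -2.07, -2.52 and -2.47 at 24 h, and in Bach2-/- cells 2.57, 1.39 and 2.22 at 0 h and -1.09, -1.11 and -1.30 at 24 h. At each time the Bach2-/- arrays lay above the WT arrays, and both genotypes fell without overlap. The fall was 3.21 in WT cells (-3.21 ± 0.33, adjusted p = 7.47e-05) and that in Bach2-/- cells 3.23 (-3.23 ± 0.33, adjusted p = 5.92e-05), in every alternative run (-2.08 in WT cells with normexp). The genotypes were 1.20 ± 0.33 apart before stimulation (adjusted p = 0.218, or 0.0267 under the replicate block) and 1.19 ± 0.33 apart after it (adjusted p = 0.0944, or 0.0116 under that block). Gzmb read -4.64, -4.07 and -3.53 in WT cells at 0 h and -5.37, -5.07 and -6.48 at 24 h, and in Bach2-/- cells -2.22, -2.36 and -1.62 at 0 h and -6.64, -4.14 and -6.32 at 24 h. It was well above background on 2 WT arrays and all 3 Bach2-/- arrays at 0 h and on no array at 24 h. It was in Bach2-/- cells at least 5.43-fold lower at 24 h than at 0 h (adjusted p = 0.00176; with normexp a change of -0.72 and 0.249), and before stimulation the genotypes were 2.01 ± 0.61 apart (adjusted p = 0.298).

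Klre1, a lectin-like receptor gene of NK cells, read -4.39, -3.42 and -4.08 in WT cells at 0 h and -5.71, -6.47 and -6.29 at 24 h, where no array was well above background. The Bach2-/- arrays were at -3.98, -4.56 and -4.55 at 0 h and -4.81, -4.38 and -4.80 at 24 h, with 1 of 3 arrays above background. It was at least 1.57-fold lower in WT cells at 24 h than at 0 h (adjusted p = 0.000659; with normexp a change of -0.17 and 0.866). Bach2-/- cells were called higher at 24 h (adjusted p = 0.0255), but the signals lay so near background that no fold can be given. That call was lost without any 1 of the 6 arrays other than WT array 1 (0.0502 to 0.109), and over all alternatives the range was 0.00738 to 0.987. Nkg7, a granule membrane gene and the brightest of this lineage, read 2.39, 2.98 and 2.89 in WT cells at 0 h, 2.79, 2.71 and 2.44 at 24 h, and in Bach2-/- cells 3.15, 3.20 and 3.16 at 0 h and 2.92, 3.35 and 2.92 at 24 h. At both times all Bach2-/- arrays were above the WT arrays, by 0.42 ± 0.23 before stimulation (adjusted p = 0.968) and by 0.41 ± 0.23 after it (adjusted p = 0.499). Prf1, the perforin gene, ran from -0.18 to 1.54 over the 12 arrays and was called in no comparison. The defining receptor gene Ncr1 was well above background on 1 array, WT 0 h array 1, where it read -4.51. Summed over the 7 NK cell markers, the linear signal ran from 8.39 to 12.2 and 8.42 to 10.1 in WT cells at 0 h and 24 h, and from 14.4 to 16.4 and 12.6 to 14.8 in Bach2-/- cells. The sum weighs Nkg7 most, which was called in no comparison, so that it does not stand for the list as a whole. A second Nkg7 probe differed between genotypes by 0.57 ± 0.41 at 0 h and by -0.18 ± 0.41 at 24 h.

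Of the T cell markers, all measured on every array, 3 were higher in Bach2-/- cells at 24 h and 4 had fallen in WT cells. At 0 h 0 of 10 passed limma's test in either direction (0 at unadjusted p under 0.05, and 0 with the replicate block), with differences of -0.54 to 0.26. In WT cells 4 fell and 1 rose after stimulation, and in Bach2-/- cells 0 fell (1 at unadjusted p under 0.05) and 1 rose. Whether the counts of the genotypes differ was not tested, and 0 of the 10 passed the test of the difference of responses (4 higher at unadjusted p under 0.05, and 1 with the replicate block). Thy1, the gene of a surface glycoprotein of T cells, read 0.60, 0.78 and 1.06 in WT cells at 0 h, -1.41, -1.82 and -1.40 at 24 h, and in Bach2-/- cells 1.41, 0.02 and 1.05 at 0 h and 0.09, 0.38 and 0.10 at 24 h. Only the WT arrays at 24 h stood apart, below the rest. Thy1 fell in WT cells by 2.36 (SE 0.33, adjusted p = 0.000574) in every alternative run, changed by -0.63 ± 0.33 in Bach2-/- cells (adjusted p = 0.283) and was higher in Bach2-/- cells at 24 h by 1.73 ± 0.33 (adjusted p = 0.0151). The last was lost without WT array 2 (0.0684), WT array 3 (0.0504) or Bach2-/- array 2 (0.0504), with a range of 0.00388 to 0.0684 over all alternatives.

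The CD3 and CD8 chains, parts of the T cell receptor complex and its coreceptor, were lower in WT cells at 24 h than at 0 h for Cd3g, Cd8b1 and Cd8a. Cd3g read -0.76, -1.07 and -0.13 in WT cells at 0 h, -2.22, -3.27 and -2.25 at 24 h, and in Bach2-/- cells -0.56, -1.92 and -1.004 at 0 h and -1.60, -1.17 and -1.43 at 24 h. Lowest of the 12 were the 3 WT arrays at 24 h, and the fall in WT cells was 1.92 (-1.92 ± 0.40, adjusted p = 0.00609) and held in every alternative run, at -1.07 with normexp. At 24 h the genotypes were 1.18 ± 0.40 apart in Cd3g (adjusted p = 0.192, or 0.0282 under the replicate block). Cd8b1 read -2.37, -2.45 and -1.93 in WT cells at 0 h, -3.60, -3.78 and -3.81 at 24 h, and in Bach2-/- cells -1.76, -2.88 and -2.22 at 0 h and -2.65, -1.84 and -2.58 at 24 h. Again only the WT arrays at 24 h lay below the others. It fell in WT cells by 1.48 (SE 0.32, adjusted p = 0.00724; -0.38 and 0.371 with normexp) and was higher in Bach2-/- cells at 24 h by 1.37 ± 0.32 (adjusted p = 0.0418), a call lost without any 1 of the 6 arrays (0.0546 to 0.152) and ranging from 0.0129 to 0.661 over all alternatives, the difference being 0.46 with normexp. Cd8a read -2.81, -2.19 and -2.83 in WT cells at 0 h, -3.47, -3.50 and -3.52 at 24 h, and in Bach2-/- cells -2.52, -2.82 and -2.97 at 0 h and -3.51, -3.25 and -3.36 at 24 h. In neither genotype did the times overlap. The fall in WT cells was 0.89 (-0.89 ± 0.23, adjusted p = 0.0182; 0.0744 without WT 0 h array 2 and 0.0562 without WT 24 h array 3, with a range of 0.00281 to 0.647 and a change of -0.26 with normexp), and the change in Bach2-/- cells was -0.60 ± 0.23 (adjusted p = 0.124, and 0.0283 with the replicate block).

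Cd3e, another CD3 chain and a defining marker, read 2.11, 3.34 and 2.68 in WT cells at 0 h, 2.19, 2.56 and 2.44 at 24 h, and in Bach2-/- cells 2.43, 2.68 and 2.66 at 0 h and 1.91, 3.28 and 2.56 at 24 h. All 4 groups overlapped, and array 1 was the lowest in each. Cd28, the costimulatory receptor gene, read -1.86, -2.03 and -1.30 in WT cells at 0 h, -2.78, -2.37 and -2.03 at 24 h, and in Bach2-/- cells -1.08, -1.90 and -1.53 at 0 h and -1.10, -0.84 and -1.03 at 24 h. At 24 h the genotypes did not overlap and differed by 1.41 ± 0.29 (adjusted p = 0.0248), a call lost without any 1 of the 6 arrays other than WT array 3 (0.0522 to 0.098) and on slide 1 alone (0.0604), with a range of 0.00598 to 0.105 over all alternatives and a difference of 0.81 with normexp. Lck, the Src family kinase gene of the T cell receptor and the brightest of this lineage, went the other way from Thy1. It read 4.32, 3.81 and 3.86 in WT cells at 0 h, 6.99, 6.10 and 6.20 at 24 h, and in Bach2-/- cells 4.38, 3.54 and 3.69 at 0 h and 6.29, 6.09 and 5.90 at 24 h. Every array at 24 h was above every array at 0 h. Lck rose by 2.44 ± 0.31 in WT cells (adjusted p = 0.000305) and 2.22 ± 0.31 in Bach2-/- cells (adjusted p = 0.000504), in every alternative run, and the genotypes overlapped at both times. Cd3d, Cd4 and Zap70 were called in no comparison; Cd3d in WT cells passed with the replicate block (-1.01 ± 0.32, adjusted p = 0.026). The summed linear signal of the 10 T cell markers ran from 31.6 to 45.3 in WT and 33.1 to 38.4 in Bach2-/- cells at 0 h, and from 86.8 to 138 and 77.8 to 96.9 at 24 h, when Lck was at its highest.

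The neutrophil markers, genes of granule proteins and of the calcium-binding S100 pair, spread widely within groups, and few of their differences between genotypes passed. At 0 h, 0 of the 8 passed limma's test, against 5 higher at unadjusted p under 0.05 and 4, Mpo among them, with the replicate block. At 24 h, 1 was higher, against 6 at unadjusted p under 0.05. S100a8, a defining marker, read 0.97, -1.93 and 2.55 in WT cells at 0 h, -2.89, 1.06 and -0.22 at 24 h, and in Bach2-/- cells 2.57, 2.50 and 3.36 at 0 h and 0.58, 3.21 and 3.33 at 24 h. WT arrays 2 and 3 at 0 h spanned 4.49 on the log2 scale, and the genotypes overlapped at both times. S100a8 differed by 2.28 ± 1.20 before stimulation (adjusted p = 0.922) and by 3.06 ± 1.20 after it (adjusted p = 0.28). S100a9, its partner and the brightest of the lineage, read 3.12, -0.20 and 4.23 in WT cells at 0 h, -1.33, 2.55 and 1.69 at 24 h, and in Bach2-/- cells 4.57, 3.97 and 5.01 at 0 h and 2.77, 4.92 and 4.92 at 24 h. It overlapped between genotypes at 0 h, not at 24 h, and was called at neither time (adjusted p = 0.963 and 0.227).

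Lcn2, the gene of the iron-scavenging protein lipocalin-2, had the narrowest spread of these. It read -1.29, -1.36 and -0.80 in WT cells at 0 h, -2.30, -1.01 and -1.54 at 24 h, and in Bach2-/- cells 0.02, 0.01 and 0.39 at 0 h and -0.62, 0.51 and 0.47 at 24 h. Every Bach2-/- array was above every WT array. Lcn2 differed by 1.29 ± 0.38 before stimulation (adjusted p = 0.277, or 0.0291 under the replicate block) and by 1.73 ± 0.38 after it (adjusted p = 0.0318). The call at 24 h was lost without WT array 1 or 3 (0.114 and 0.102) or Bach2-/- array 2 or 3 (0.111 and 0.126), and without both doubted arrays (0.138), with a range of 0.0018 to 0.191 and a difference of 1.11 with normexp. Camp, Ngp and Ltf, granule proteins of maturing neutrophils, differed by 2.81 to 3.33 at 0 h and 2.85 to 3.26 at 24 h with SE of 0.82 to 1.02, and did not pass (adjusted p = 0.104 to 0.433). With the replicate block Camp and Ltf passed at both times and Ngp at 24 h. Ngp passed the filter only through Bach2-/- cells, so that its call is a description. Mpo, the myeloperoxidase gene, was well above background on all 3 Bach2-/- arrays at 0 h (-3.11, -3.09 and -3.19) and on no WT array. It was at least 3.64-fold higher there, with an adjusted p of 0.0671 (0.0211 with the replicate block). Mpo was tested only because those Bach2-/- arrays measured it, so that this difference is a description. Elane, the elastase gene, had no value on Bach2-/- array 2 at either time, where its spot was an outlier, and its differences of -0.74 ± 1.21 at 0 h and -0.27 ± 1.21 at 24 h were called at neither time.

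Within groups the neutrophil markers moved together by array. In WT cells at 24 h, 8 of 8 were lowest on array 1 and 8 of 8 highest on array 2. In Bach2-/- cells at 24 h, 7 of 7 with all values were lowest on array 1. In WT cells at 0 h, 6 of 8 were highest on array 3 and 5 of 8 lowest on array 2. The median range of a marker over the 3 arrays was 3.14 and 3.32 in WT cells at 0 h and 24 h and 0.53 and 2.19 in Bach2-/- cells. The summed linear signal of the 7 markers with all values ran from 1.89 to 27.2 in WT cells at 0 h, 0.865 to 9.58 in WT cells at 24 h, 26.9 to 50.04 in Bach2-/- cells at 0 h and 10.2 to 46.9 in Bach2-/- cells at 24 h. The part of slide in these values was not tested beyond the block, and Elane, Ltf, Ngp and Camp were among 8 markers of which array 1 was lower than the mean of arrays 2 and 3 in all 4 groups and by over 1 on average. The other 4 were Itgam, Cd4, Csf1r and Prf1.

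**Figure D4:**
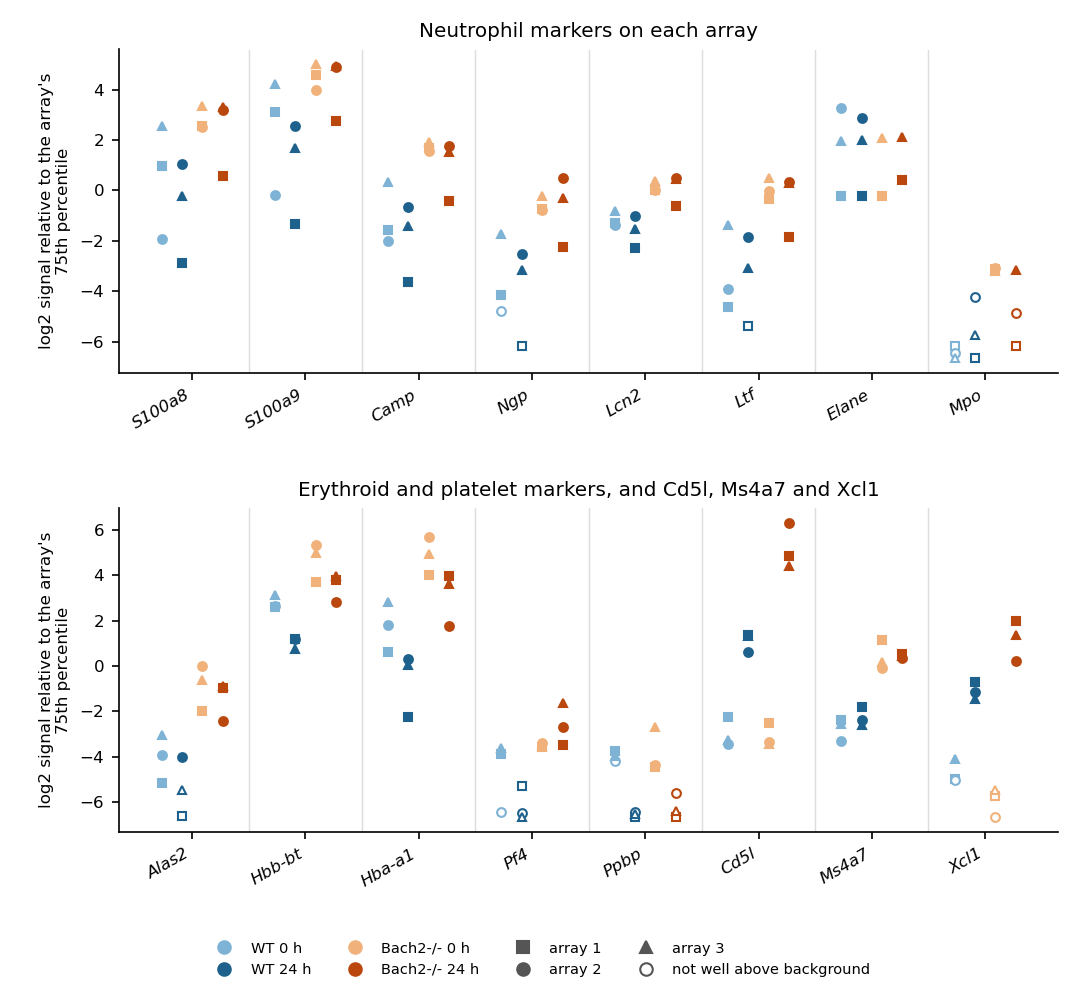
Log2 signal of the 8 neutrophil markers (top) and of the 5 erythroid and platelet markers with Cd5l, Ms4a7 and Xcl1 (bottom) on each array, coloured by group and shaped by array number; open symbols were not well above background, and levels of different genes are not comparable. WT 24 h array 1 is the lowest WT 24 h point for all 8 neutrophil markers, and the 3 erythroid rows show every Bach2-/- array above every WT array of the same time. The share of all genes whose arrays do not overlap is not given.

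The erythroid markers were higher in Bach2-/- cells on every array of the same time, and 0 of the 3 passed limma's test at 0 h. The share of all genes whose arrays do not overlap is not given here, so no result is read from the lack of overlap. Alas2, which encodes the first enzyme of heme synthesis in red cell precursors, read -5.17, -3.91 and -3.04 in WT cells at 0 h, -6.59, -4.01 and -5.46 at 24 h, and in Bach2-/- cells -1.97, -0.02 and -0.60 at 0 h and -0.97, -2.42 and -0.89 at 24 h. WT 24 h arrays 1 and 3 were not well above background. Alas2 differed by 3.18 ± 0.76 before stimulation (adjusted p = 0.118, or 0.0248 under the replicate block) and by 3.93 ± 0.76 after it (adjusted p = 0.0164). The latter was lost without WT array 1 or 3 (0.0653 and 0.0665) or Bach2-/- array 1 or 3 (0.0543 and 0.0737) and with normexp (a difference of 1.19 and 0.149, the upper end of a range from 0.00209). Hbb-bt, a beta globin gene and the brightest of this lineage, read 2.58, 2.66 and 3.15 in WT cells at 0 h, 1.17, 1.21 and 0.75 at 24 h, and in Bach2-/- cells 3.69, 5.32 and 4.96 at 0 h and 3.80, 2.84 and 3.95 at 24 h. It was higher in Bach2-/- cells by 1.86 ± 0.42 at 0 h (adjusted p = 0.0958, or 0.0354 under the replicate block) and by 2.49 ± 0.42 at 24 h (adjusted p = 0.00788), the latter in every alternative run. In WT cells it fell by 1.75 (SE 0.42, adjusted p = 0.0127; 0.0569 without WT 0 h array 3).

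Hba-a1, an alpha globin gene, read 0.60, 1.82 and 2.82 in WT cells at 0 h, -2.24, 0.31 and 0.05 at 24 h, and in Bach2-/- cells 4.01, 5.67 and 4.96 at 0 h and 3.99, 1.74 and 3.61 at 24 h. At neither time did the genotypes overlap, and at 0 h array 1 was the lowest of its group in both, as for Alas2 and Hbb-bt. Hba-a1 differed by 3.13 ± 0.82 before stimulation (adjusted p = 0.177, or 0.0451 under the replicate block) and by 3.74 ± 0.82 after it (adjusted p = 0.0308). The call at 24 h was lost without WT array 1 or 3 (0.106 and 0.0648) or Bach2-/- array 1 or 3 (0.0907 and 0.117), and on slide 1 alone (0.0688), with a range of 0.00656 to 0.117. The globin genes have near-identical copies, so that a probe may read Hba-a2 or Hbb-bs too, and the values of the pairs are uncertain as to the copy. The summed linear signal of the 3 markers ran from 7.53 to 16.05 and 2.48 to 3.61 in WT cells at 0 h and 24 h, and from 29.2 to 91.9 and 10.68 to 30.3 in Bach2-/- cells.

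The 3 erythroid genes are shown in the same way, because all 3 were higher in Bach2-/- cells at 24 h. Capitals mark AGATAA, a motif of GATA factors, and CCACCC, a motif of Krüppel-like factors, on either strand. Alas2 (chrX:150547167-150547416, + strand) holds AGATAA 86 bases and CCACCC 40, 35 and 30 bases before the start, neighbouring matches of the latter overlapping. Hbb-bt (chr7:103813924-103814173, - strand) and Hba-a1 (chr11:32283422-32283671, + strand) hold CCACCC once, 141 and 61 bases before the start. As letters, AGATAA stood in 5 of the 36 marker promoters and in 9.99% of all, and CCACCC in 16 of the 36 and in 28.1% of all.
Alas2: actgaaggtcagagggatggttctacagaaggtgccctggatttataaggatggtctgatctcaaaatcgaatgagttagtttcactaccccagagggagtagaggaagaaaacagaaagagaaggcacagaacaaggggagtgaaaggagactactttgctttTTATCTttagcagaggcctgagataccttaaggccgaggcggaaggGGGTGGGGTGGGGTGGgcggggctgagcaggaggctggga
Hbb-bt: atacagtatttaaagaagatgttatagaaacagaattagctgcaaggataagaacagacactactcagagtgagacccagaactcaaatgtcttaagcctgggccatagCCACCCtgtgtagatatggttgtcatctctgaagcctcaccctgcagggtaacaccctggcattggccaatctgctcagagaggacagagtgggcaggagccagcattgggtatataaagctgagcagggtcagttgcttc
Hba-a1: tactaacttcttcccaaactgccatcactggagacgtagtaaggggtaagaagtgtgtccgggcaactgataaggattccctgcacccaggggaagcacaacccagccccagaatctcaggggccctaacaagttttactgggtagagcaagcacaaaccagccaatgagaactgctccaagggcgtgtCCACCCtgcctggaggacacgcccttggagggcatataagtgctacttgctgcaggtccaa

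Both platelet markers encode chemokines of platelet granules. Pf4, platelet factor 4, read -3.89, -6.44 and -3.63 in WT cells at 0 h, -5.30, -6.47 and -6.64 at 24 h, and in Bach2-/- cells -3.57, -3.38 and -3.51 at 0 h and -3.50, -2.70 and -1.62 at 24 h. WT 0 h array 2 and all 3 WT arrays at 24 h were not well above background. At 24 h Bach2-/- cells were at least 4.02-fold higher (adjusted p = 0.0185), a call lost without WT array 2 or 3 (0.0741 and 0.0863) or Bach2-/- array 2 or 3 (0.0545 and 0.0823) and with normexp (a fitted difference of 0.73 and 0.372, the highest of a range from 0.0067). Pf4 was tested only because the Bach2-/- arrays measured it, so that this call is a description. At 0 h the difference was 1.17 ± 0.70 (adjusted p = 1). Ppbp, pro-platelet basic protein, read -3.74, -4.20 and -3.94 in WT cells at 0 h, -6.64, -6.42 and -6.49 at 24 h, and in Bach2-/- cells -4.43, -4.34 and -2.68 at 0 h and -6.64, -5.60 and -6.38 at 24 h. No array at 24 h was well above background. Ppbp was at least 1.57-fold lower at 24 h than at 0 h in WT cells (adjusted p = 0.00184) and at least 1.61-fold lower in Bach2-/- cells (adjusted p = 0.003), both lost with normexp (changes of -0.37 and -0.20, adjusted p of 0.566 and 0.908). Before stimulation the genotypes were 0.14 ± 0.44 apart (adjusted p = 1). The summed linear signal of both markers ran from 0.066 to 0.146 and 0.0211 to 0.0354 in WT cells at 0 h and 24 h, and from 0.131 to 0.244 and 0.0987 to 0.337 in Bach2-/- cells.

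The dendritic cell markers moved in opposite directions at 24 h. Flt3, the cytokine receptor gene of dendritic cell and lymphoid progenitors, read 0.09, -0.56 and -0.78 in WT cells at 0 h, 0.49, 0.18 and -0.08 at 24 h, and in Bach2-/- cells -0.08, -1.17 and -0.53 at 0 h and -1.70, -1.33 and -1.40 at 24 h. Lowest of the 12 were the 3 Bach2-/- arrays at 24 h. Flt3 was lower in Bach2-/- cells at 24 h by its reported probe (-1.68 ± 0.32, adjusted p = 0.0162), a call lost without WT array 1 or 2 (0.067 and 0.0575) or Bach2-/- array 1 or 3 (0.0544 and 0.0529), with a range of 0.0018 to 0.0676 over all alternatives. Itgax, the gene of the integrin CD11c, read -2.71, -2.12 and -2.37 in WT cells at 0 h, -3.97, -4.13 and -3.19 at 24 h, and in Bach2-/- cells -2.11, -2.91 and -2.76 at 0 h and -2.51, -0.94 and -2.15 at 24 h. WT arrays at 24 h were the lowest, and Bach2-/- 24 h array 2 the highest. Both dendritic cell markers together gave a summed linear signal of 0.482 to 1.47 over the 12 arrays. Itgax was higher in Bach2-/- cells at 24 h by 1.89 ± 0.42 (adjusted p = 0.0318; 0.69 with normexp), lost without WT array 1 or 2 (0.113 and 0.123) or Bach2-/- array 2 or 3 (0.0751 and 0.07) and ranging from 0.0102 to 0.413. Itgax fell in WT cells by 1.36 (SE 0.42, adjusted p = 0.0372; a change of -0.36 with normexp), lost without any 1 of the 6 WT arrays other than WT 24 h array 3 (0.051 to 0.118) and ranging from 0.00822 to 0.488.

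Of the 45 genes, 9 had more than 1 probe, and for some the probes disagreed. The reported Flt3 probe did not change in WT cells past the test (0.62 ± 0.32, adjusted p = 0.216), while another probe rose by 1.73 (adjusted p = 0.000379) and differed between genotypes at 24 h by -0.78 ± 0.23 (adjusted p = 0.114). A second Nkg7 probe rose in WT cells by 1.55 (adjusted p = 0.0199), where the reported one changed by -0.11 ± 0.23 (adjusted p = 0.822). The reported Cd4 probe was lower on array 1 in all 4 groups, by 1.80 on average, and the other Cd4 probe was not so. Their levels also differed, at 1.09 to 4.11 for the reported probe and -3.50 to -2.87 for the other. For Itgam that lowering was 1.83 on average for the reported probe and 0.42 and 0.16 for the others. For Csf1r it was 1.39 for the reported probe and 1.98 for another, while the remaining probe was higher by 0.06. Whether slide or sample makes these probes differ was not tested.

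Further genes of the same lineages gave the following counts, to be read against the 2.26% higher and 0.945% lower of all genes at 24 h. At 24 h, 4 of 17 further T cell genes tested were higher in Bach2-/- cells (the inhibitory receptor genes Ctla4, at least 2.56-fold, and Cd5, 1.63 ± 0.33, the costimulator Icos, 1.86 ± 0.41, and Ubash3a, at least 2.12-fold) and 0 were lower. Of 12 further NK cell genes, 5 were higher: Il2rb (4.62 ± 0.28), the gene of a shared receptor chain for interleukin-2 and interleukin-15, Ctsw (3.98 ± 0.47), a cathepsin, Ccl5 (3.36 ± 0.32), a chemokine and Fasl (2.99 ± 0.51), a death ligand, among them. Of 11 further macrophage genes 0 passed limma's test at 24 h, against 7 higher and 0 lower at unadjusted p under 0.05. Of 10 further neutrophil genes 3 were higher (Fpr1, Cebpe and Cd177), of 7 further dendritic cell genes 2 (Ccr9, 3.88 ± 0.41, and Batf3, at least 3.24-fold), of 8 further erythroid genes 1 (Hba-a2, 3.82 ± 0.85) and of 6 further platelet genes 0 (1 at unadjusted p under 0.05). Ctla4 and Fpr1 passed the filter only through Bach2-/- cells at 24 h, and Cebpe and Cd177 only through those at 0 h. Ubash3a passed only through Bach2-/- cells, at both times. These calls at 24 h rest on that selection and are descriptions. At 0 h the macrophage gene Axl (2.03 ± 0.40) and the red cell anion exchanger gene Slc4a1 (1.92 ± 0.36) were higher and no other was called.

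After stimulation the further lists changed as follows, where 9.38% of all genes were called lower in WT cells and 8.11% in Bach2-/- cells. The shares called higher were 12.5% in WT cells and 5.92% in Bach2-/- cells. Of 17 T cell genes 6 fell in WT cells and 1 in Bach2-/- cells, the latter a share near that of all genes. Cd2, which fell in both, changed by -4.56 ± 0.22 and -4.67 ± 0.22. Of the same 17 genes 0 rose in WT cells and 3 in Bach2-/- cells (Ctla4, Cd5 and Il7r). Ctla4 passed the filter only through Bach2-/- cells at 24 h, so that its rise is a description. Of 12 NK cell genes 6 fell in WT and 3 in Bach2-/- cells, among them the receptor gene Klrd1 (at least 4.41-fold and 2.46-fold lower). In WT cells 1 of the 12 rose (Fasl) and in Bach2-/- cells 3 (Fasl, Il2rb and Ctsw). Fasl passed the filter only through the 24 h groups, so that its rises are descriptions. Klrd1 and Klrb1c, which fell in both, passed the filter only through the 0 h groups, so that their falls are descriptions. In the macrophage list the receptor kinase gene Axl rose by 7.36 ± 0.40 in WT and 6.94 ± 0.40 in Bach2-/- cells, and Sirpa by 3.82 ± 0.35 and 3.43 ± 0.35, while Vcam1 and Tlr4 fell in both. Spic and Cx3cr1 were also called lower in WT cells. Vcam1 passed the filter only through Bach2-/- cells at 0 h, so that its fall in those cells is a description. Of 10 neutrophil genes 1 rose and 1 fell in WT cells, and 2 rose in Bach2-/- cells. Of 7 dendritic cell genes 2 fell in WT cells, while 2 rose and 2 fell in Bach2-/- cells. Of 8 erythroid genes 1 rose in WT cells and 2 fell in Bach2-/- cells. Of 6 platelet genes 1 fell in WT cells and 2 in Bach2-/- cells. The rise of Fpr1 and the falls of Cd209a, Gata1 and Vwf are descriptions. These genes passed the filter only through the groups in which they were higher. Among 20 B cell genes 12 fell in WT cells and 15 in Bach2-/- cells, and 0 rose in either (1 at unadjusted p under 0.05 in each). At 24 h 2 of the 20 were lower in Bach2-/- cells, Cr2 (-2.06 ± 0.25), a complement receptor gene, and Bank1 (-1.35 ± 0.26), a scaffold gene of B cells, and 0 were higher (1 at unadjusted p under 0.05). The summed linear signal of the B cell list ran from 2640 to 3334 in WT cells at 0 h and 1492 to 2399 at 24 h, and from 2695 to 3992 and 1401 to 1832 in Bach2-/- cells.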

How the data were processed

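Cy3-labelled RNA of follicular B cells was hybridised to 12 single-colour Agilent arrays, 1 sample each, and grouped by the labels. The authors, per the file headers, read the scans with Agilent Feature Extraction 10.7.3.1, whose processed signal is an intensity after background subtraction and detrending; median spot and background intensities, deposited beside it, served the normexp alternative (offset 50). The flags for controls, outliers, saturation and signal well above background come from the same deposited files. The deposited log2 table of the whole series does not state its scale or centring. Its values correlated with the gene-centred scanner values at r 0.9992 to 0.9997, its column medians ran from -0.27 to 0.50, its direction is that of the signal, and it was used as an alternative. No per-sample column was left unmapped (0).

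From these, control and outlier spots were left out, spots of a probe averaged, signals divided by the 75th percentile of the array, floored at 0.01 and log2-transformed. A probe was kept where 1 or more groups had all 3 arrays well above background (30735 probes), and 1 was taken per gene by highest mean (22744 genes). Names came from RefSeq accessions (25731 of 26273 matched). Group means over all 12 arrays were fitted in limma 3.58.1, with 5 contrasts, 2-sided tests and Benjamini-Hochberg adjustment over all genes, threshold 0.05. The fit was tested on simulated data. Software was Python 3.11.15 and R 4.3.3, the latter with the package data.table at version 1.17.8. With 3 arrays against 3 an exact permutation p cannot go below 0.1. Errors are standard errors of the fit, n = 3 per group. For a marker that no array of a group measured above background, "at least" folds set the other group's mean log2 signal against that group's detection limit (per array, the lowest signal of any probe well above background, or the marker's own where higher). Bounded medians set such a marker to its bound, or to 0 where no fold can be given.

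Replicate numbers are those of the labels. The deviations of samples from their group's mean had Pearson correlations of 0.467 to 0.890 in the 18 pairs of the same number, of 0.246 to 0.643 in the 12 other pairs of 1 slide and of -0.816 to -0.416 in the 24 pairs across slides. Deviations within a group cancel out, which by itself pushes the correlations across slides below those within. Every number lies on 1 slide. The labels do not state a pairing, so the main fit has no block and its p-values and counts leave this shared variation out. In the replicate block alone the numbers were taken to pair the samples. The fit with that block is quoted beside a result if its call differs or its count shifts more than 1.5 times.

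The markers, the further lists and the alternatives were chosen with earlier results of these data known. By the rule for naming, values on every array are given for each marker past the test in any contrast, the brightest of each lineage and 1 defining marker of each (Cd3e, Ncr1, Csf1r, S100a8, Flt3, Alas2 and Pf4); of the further lists at most 4 genes per lineage and contrast are named. The alternatives were normexp, quantile normalization, no filter, a filter on all 12 arrays, a replicate block, a slide block, slide 1 alone, only the groups compared, the mean of a gene's probes, the deposited log2 values, leaving out each array and leaving out both doubted arrays.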

Additional observations from a re-analysis of the deposited data

Results flagged for a closer look

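Of the markers and further lineage genes, 3 differed between genotypes in their response to stimulation by limma's interaction test. They were 1 of 41 tested markers and 2 of 12 further NK cell genes, where 0.259% of all genes tested were called higher and 0.0835% lower. The lists were chosen with earlier results of these data known. Cd5l rose by 4.18 more on the log2 scale in Bach2-/- than in WT cells (SE 0.70, adjusted p = 0.0309). That call held in 12 of 22 alternatives. Il2rb, from the further NK cell list, responded by 4.33 more in Bach2-/- cells (SE 0.39, adjusted p = 0.000533). It read -2.18, -2.44 and -1.72 in WT cells at 0 h, -2.65, -2.56 and -2.68 at 24 h, and in Bach2-/- cells -1.28, -2.25 and -1.95 at 0 h and 2.07, 1.87 and 2.03 at 24 h, so that the Bach2-/- arrays at 24 h alone stood above the others. Ctsw, a cathepsin gene from the same list, responded by 3.96 more (SE 0.67, adjusted p = 0.0309). Its arrays gave -1.38, -1.49 and -1.50, then -1.99, -1.51 and -1.61 in WT cells, and -1.29, -1.66 and -1.37, then 1.85, 3.66 and 1.32 in Bach2-/- cells. Neither Il2rb nor Ctsw passed the test of a change in WT cells. Whether the interaction calls of Il2rb and Ctsw held in the alternatives is not given here. Of the listed NK cell markers, Nkg7, Gzma and Prf1 were well above background on all 12 arrays, Ncr1 on 1 and the others on some. The part of NK cells in these values was not tested.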

How the results depend on the processing

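Of 43 calls of markers over the 5 comparisons, 16 held in every alternative and 0 changed sign. The 16 were Ms4a7 at 0 h; Cd5l, Ms4a7 and Hbb-bt at 24 h; Cd3g, Thy1, Lck, Xcl1, Gzma, Cd5l and Adgre1 in WT cells; and Lck, Xcl1, Gzma, Cd5l and Adgre1 in Bach2-/- cells. Marker counts that moved by over 1.5 times were as follows. With normexp they were 4 for genotype at 24 h, 8 for the WT response and 5 for the Bach2-/- response. Requiring signal on all 12 arrays gave 5 for the Bach2-/- response. With only the groups compared in the fit they were 2 at 0 h and 7 at 24 h, and without both doubted arrays 2 at 0 h, 8 at 24 h and 2 for the difference of responses. Quantile normalization gave 2 at 0 h and 0 for the difference of responses. The replicate block gave 9 at 0 h and 6 for the difference of responses, the slide block 9 and 5, and slide 1 alone 2 for the latter. Leaving out 1 array gave 1 to 2 at 0 h, 4 to 10 at 24 h, 13 to 15 for the WT response, 7 to 10 for the Bach2-/- response and 0 to 2 for the difference of responses.

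Over all genes the counts were 170, 729, 4985, 3191 and 78 in that order. With normexp they were 63, 326, 3151, 2055 and 41, with the replicate block 849, 4469, 10746, 7710 and 1157 and with the slide block 727, 3594, 10257, 7075 and 819. Signal on all 12 arrays gave 89 at 0 h, 423 at 24 h and 35 for the difference of responses, and only the groups compared 90 at 0 h, 303 at 24 h and 2055 for the Bach2-/- response. Leaving out 1 array gave 70 to 111, 380 to 614, 3197 to 4079, 2240 to 3429 and 41 to 79. The causes of these shifts were not tested, except that fewer arrays or groups leave a fit less information about the spread.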
